A study of Danio rerio with 32 samples.

Results

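The proteasome probes described here are the array probes whose RefSeq transcript belongs to a zebrafish gene with a symbol beginning psma, psmb, psmc, psmd, psme, psmf or psmg. The rule found 59 probes of 49 genes among the 43603 probes of the array, on which 10536 genes had a symbol, and 40 probes of 34 genes among the 5481 probes of the deposited table. By role, the 59 probes divide into 10 of the core alpha ring, 4 of the core beta ring and 6 placed by symbol with the immunoproteasome beta subunits. A further 7 are of cap ATPases, 16 of cap non-ATPases, 7 of activators and an inhibitor and 7 of assembly factors. The other 2, *psmc3ip* and *psme3ip1*, match by symbol only and encode interacting proteins, not subunits.

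The proteasome is the protease that degrades ubiquitin-tagged proteins in every eukaryotic cell. Its barrel-shaped core consists of outer alpha rings that gate the entry and inner beta rings that carry the catalytic sites, and a regulatory cap of ATPases and non-ATPases binds tagged substrates, removes the ubiquitin and unfolds them into the core. In mammals interferon induces a set of alternative beta subunits and an activator, which form the immunoproteasome, and cells whose proteasome is inhibited or overloaded are known to raise the transcripts of core and cap subunits together.

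Transcript abundance was measured in livers of adult male zebrafish of the Tübingen strain with single-colour Agilent arrays, each hybridized with RNA pooled from 4 to 5 fish. The labels give an age of 6 to 9 months, and the methods 6 to 12 months. One experiment exposed fish for 24 h in flow-through tanks to dichlorvos (DDVP), an organophosphorus insecticide that inhibits acetylcholinesterase, at a low, mid or high concentration (4 arrays each), with 8 control arrays of unexposed fish labelled as 2 sets of 4. The measured concentrations were 6, 16 and 30 mg/L, while the labels give 6, 19 and 32 mg/L. The other experiment, without toxicant, compared fish unfed for 24 h by the labels (29 h by the methods), fish unfed for 50 h and fish fed 4 h before harvest, with 4 arrays each. No source used here says whether the pools of a group came from separate tanks, so p-values measure the spread between these pools. In bulk liver RNA, fewer cells of a type and less RNA per cell cannot be told apart.

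DDVP values are the log2 values of the deposited table, and the feeding values come from the scanner files. The table holds only probes that the authors selected for a difference among these arrays, so the counts of DDVP calls among its 40 proteasome probes are descriptions. Adjusted p-values computed in the table rest on the same selection, so they too are descriptions and not independent evidence of a change. A probe is called where its adjusted p does not exceed 0.001 and it changed 1.8-fold or more (limma, adjusted by Benjamini-Hochberg over 5481 probes). The means of the 2 control sets were equal to within 1e-04 in every probe of the table, so standard errors computed with 8 controls are too small. Each comparison against the controls was repeated with either set alone, and the comparisons between concentrations were not. With equal set means these repeats could not move a fold change, and they vary only the number of controls and the spread. The median of the table was 9.52 to 9.72 on the 20 DDVP arrays. On the feeding arrays 48.9 to 56.7% of spots were well above background. As a check of the tissue, 9 probes of 6 hepatocyte marker genes lay at the 84.3 to 99.9 percentile of all probes in fed fish. However, 9 exocrine pancreas probes lay at the 93.3 to 99.7 percentile, so the check does not show RNA of liver alone. The table holds 3 probes of the hepatocyte markers, and at the high concentration the log2 change was -1.09 and -2.04 for *fgb*, both called lower, and -0.67 for *fgg*, which encode fibrinogen chains. It holds none of the exocrine pancreas, erythrocyte or leukocyte markers, so the part of those cells in the DDVP values was not tested.

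Most core probes and all cap probes of the table were higher at the mid and high DDVP concentrations, with 8 and 9 of the 10 core probes and 22 and 22 of the 22 cap probes called higher, while the immunoproteasome subunit *psmb9a* was lower. At the high concentration 37 of the 40 probes rose and 2 fell, where 39.4% of all table probes were called higher and 35.1% lower. At the mid concentration 34 rose and 2 fell, against 31.9% higher and 30.7% lower in the whole table. At the low concentration 1 of the 40 rose and 0 fell, against 13.4% and 17.3% of the table. Without the fold limit 10 rose at low, against 23% of the table, and 11 were above every control, against 25.3%. The median log2 change of the 40 probes was 0.22 at low, 1.32 at mid and 1.48 at high, where the medians of all table probes were 0.05, 0.45 and 0.51. Array by array, the median of the 40 probes relative to the control mean was 1.36 to 1.50 on the 4 high arrays and -0.15 to 0.05 on the 8 control arrays. It was 0.16 to 0.45 on the low arrays and 1.21 to 1.36 on the mid arrays. The groups did not overlap for 40 of the 40 probes at the high concentration, 38 of them higher and 2 lower than every control, where 49.5% and 39.9% of the table did so.

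**Figure D1:**
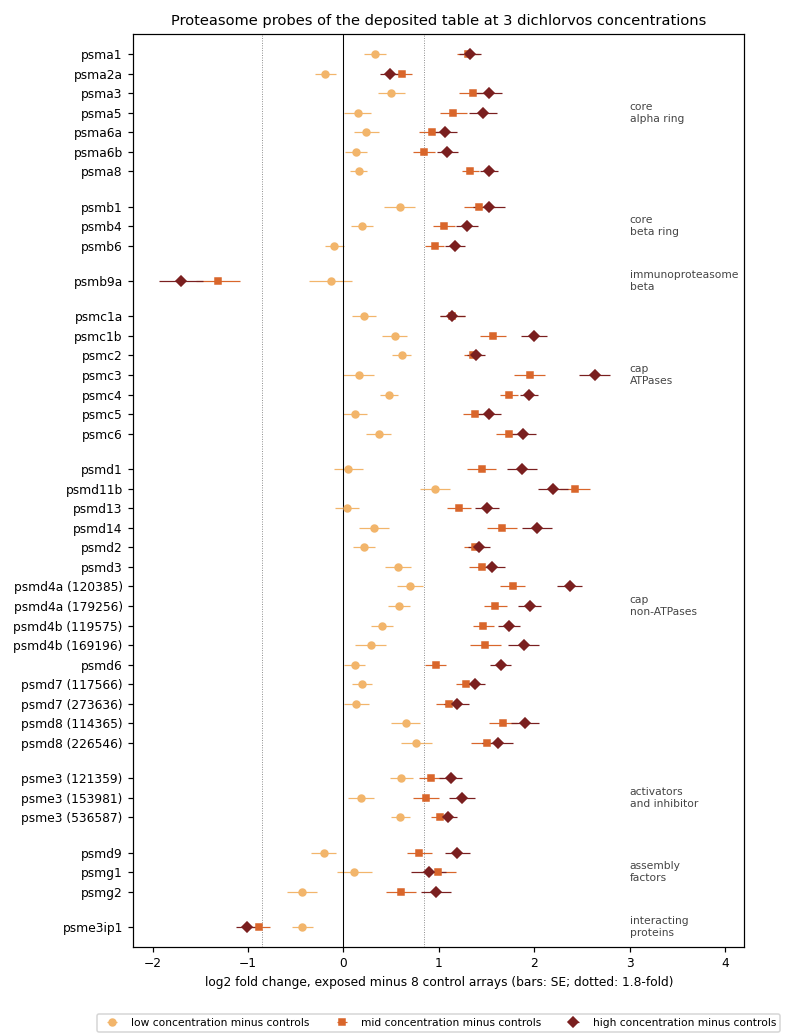
Log2 fold change of each of the 40 proteasome probes in the deposited table against the 8 control arrays at the low, mid and high DDVP concentrations (4 arrays each), with standard errors and the 1.8-fold limits dotted. The cap probes lie at 1.14 to 2.63 at the high concentration, and *psmb9a* and *psme3ip1* lie below 0 at all 3.

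The core alpha ring, whose subunits form the gate of the barrel, had 7 probes of 7 genes in the table, and 6 of them rose at the high concentration. The largest change among them was in *psma8*, an alpha subunit whose mammalian namesake is known from the testis. It measured 14.99, 15.36, 15.08 and 15.22 on the high arrays, against a lowest of 13.48, a median of 13.63 and a highest of 13.81 on the control arrays. It was 13.91, 13.72, 13.76 and 13.80 on the low arrays and 15.00, 14.93, 14.93 and 15.01 on the mid arrays. All mid and high arrays lay above every control by more than 1 log2 unit, while 3 of the 4 low arrays lay within the control range. At the high concentration the change was 2.88-fold (log2 1.53 ± 0.09 SE, adjusted p = 9.3e-13 in limma).

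The smallest change of the ring was in *psma2a*, which did not reach 1.8-fold at any concentration. It measured 12.31, 12.62, 12.42 and 12.68 on the high arrays, against 11.92, 11.99 and 12.20 (lowest, median and highest) on the control arrays. Low arrays measured 11.93, 11.71, 11.71 and 11.96, and mid arrays 12.71, 12.90, 12.48 and 12.43. The high and mid arrays thus lay above every control, by 1.40-fold on average at high (adjusted p = 1.8e-04 in limma). The 5 other alpha genes that rose at high, *psma1*, *psma3*, *psma5*, *psma6a* and *psma6b*, changed by 1.06 to 1.52 on the log2 scale. Of these, *psma6b* was not called at the mid concentration, where its log2 change of 0.85 lay at the 1.8-fold limit.

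The core beta ring carries the catalytic sites, and its 3 probes in the table all rose at the mid and high concentrations. *psmb1*, a structural beta subunit, had the largest change at high. It measured 12.71, 13.00, 12.63 and 12.90 on the high arrays, against 10.71, 11.30 and 12.04 (lowest, median and highest) on the control arrays. On the low arrays *psmb1* stood at 12.00, 11.95, 11.96 and 11.58, and on the mid arrays at 12.84, 12.77, 12.75 and 12.48. One control array of the first set, at 12.04, lay above all 4 low arrays. The change was 2.88-fold at high (log2 1.53 ± 0.16 SE, adjusted p = 1.4e-08 in limma).

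*psmb6*, which encodes the catalytic subunit of caspase-like activity, had the smallest change of the beta ring. It measured 12.97, 13.29, 13.51 and 13.34 on the high arrays, against 11.92, 12.09 and 12.29 (lowest, median and highest) on the control arrays. Low arrays measured 12.16, 11.97, 11.90 and 12.00, and mid arrays 13.18, 12.98, 12.98 and 13.09. Low and control arrays overlapped (log2 change -0.09), and every mid and high array was above both. The rise at high was 2.26-fold (log2 1.17 ± 0.10 SE, adjusted p = 5.7e-10 in limma), and that of *psmb4*, another structural subunit, was 2.46-fold (adjusted p = 6.2e-10 in limma).

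*psmb9a* encodes the beta subunit that, in mammals, interferon induces and that takes the place of the *psmb6* product in the immunoproteasome, and it was the only subunit of the core or cap, among those in the table, that fell. It measured 9.41, 9.77, 9.17 and 9.34 on the high arrays, against 10.71, 10.90 and 11.96 (lowest, median and highest) on the control arrays. At the low concentration it stood at 10.90, 11.19, 10.88 and 11.00, inside the control range. The mid arrays gave 9.22, 9.77, 10.58 and 9.67, the most scattered values of all groups, and all below every control. The level was 3.26-fold lower at high (log2 -1.70 ± 0.23 SE, adjusted p = 3.6e-07 in limma) and 2.49-fold lower at mid (adjusted p = 1.4e-05). Between high and low it fell by 1.57 on the log2 scale (adjusted p = 1.7e-05), and between high and mid the difference was -0.39 with a 95% interval of -0.93 to 0.16. The fall between mid and low passed the threshold with all arrays and not when any 1 of 7 of the 8 arrays was left out (adjusted p 0.0013 to 0.0038). The other genes placed by symbol with the immunoproteasome beta subunits are *psmb8a*, *psmb10*, *psmb11a*, *psmb12* and *psmb13a*. These and the interferon-induced activator genes *psme1* and *psme2* have no probe in the table, so their DDVP response is not analysed here.

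**Figure D2:**
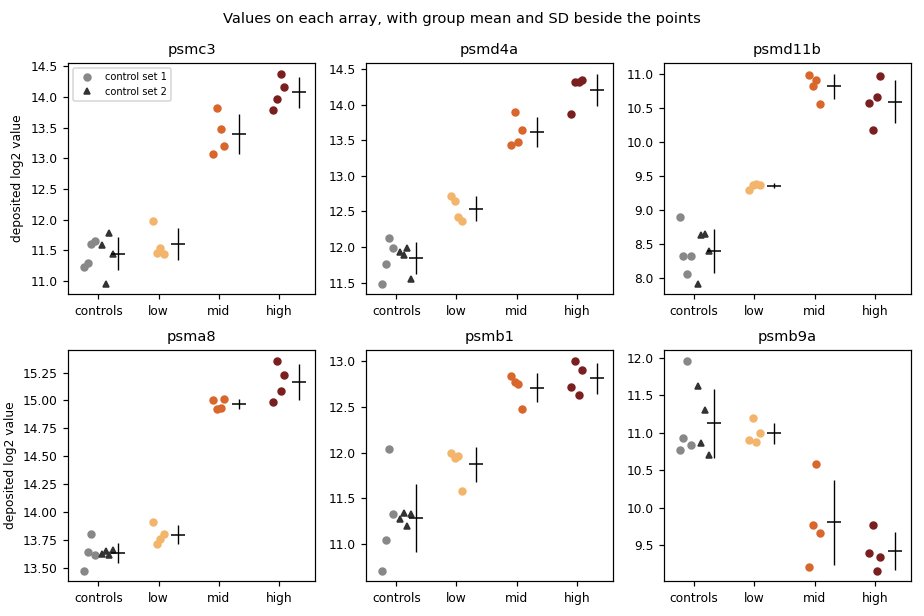
Deposited log2 value of 6 proteasome probes on each DDVP array (dots and triangles), with controls, low, mid and high groups along the axis and the mean and SD of each group beside its points. For *psmc3*, *psma8* and *psmb9a* the low arrays lie with or next to the controls. Their mid arrays lie with or near the high arrays, except mid replicate 3 of *psmb9a*, which lies next to the controls. The 4 low arrays of *psmd11b* lie between its controls and its mid and high arrays.

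The cap showed the largest changes, and all 22 of its probes, from 18 genes, were called higher at both the mid and the high concentration. Their median log2 change was 0.35 at low, 1.48 at mid and 1.81 at high, beside 0.18 at low and 1.31 at high for the 10 core probes, which lay at 0.61 to 1.43 at mid. Among the 7 ATPases, which form the ring that unfolds substrates, *psmc3* changed most. It measured 13.79, 13.97, 14.38 and 14.16 on the high arrays, against 10.96, 11.51 and 11.78 (lowest, median and highest) on the control arrays. The low arrays gave 11.98, 11.46, 11.53 and 11.44, and the mid arrays 13.08, 13.82, 13.49 and 13.20. With 1 exception at 11.98 the low arrays fell inside the control range, and every mid and high array lay over 1 log2 unit above it. The rise was 6.20-fold at high (log2 2.63 ± 0.16 SE, adjusted p = 2.1e-12 in limma) and 3.87-fold at mid.

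*psmc1a* changed least of the ATPases. It measured 13.06, 13.00, 12.47 and 12.80 on the high arrays, against 11.42, 11.68 and 11.90 (lowest, median and highest) on the control arrays. Values of 12.10, 11.73, 12.05 and 11.75 were read on the low arrays, and of 13.05, 12.81, 12.57 and 12.91 on the mid arrays. Its mid and high arrays covered the same range, with a difference of 0.00 between the groups (95% interval -0.31 to 0.31), and both lay above every control (2.21-fold at high, adjusted p = 3.2e-08 in limma). Its paralog *psmc1b* rose 4.00-fold at high (adjusted p = 7.1e-12). The remaining ATPase genes, *psmc2*, *psmc4*, *psmc5* and *psmc6*, rose by 1.39 to 1.95 on the log2 scale at high.

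Among the 15 non-ATPase probes in the table, *psmd4a*, a ubiquitin receptor of the cap, changed most at the high concentration. Its main probe (the one with the highest mean, as for every gene with several) measured 13.88, 14.32, 14.31 and 14.34 on the high arrays, against 11.49, 11.91 and 12.12 (lowest, median and highest) on the control arrays. It stood at 12.72, 12.65, 12.42 and 12.37 on the low arrays and at 13.44, 13.90, 13.48 and 13.65 on the mid arrays. Here the low arrays too lay above every control, though by less than the 1.8-fold limit on average (log2 change 0.70). The rise at high was 5.17-fold (log2 2.37 ± 0.13 SE, adjusted p = 4.5e-13 in limma), and 3.87-fold on the gene's other probe. The paralog *psmd4b* rose by 1.74 and 1.89 on the log2 scale on its probes.

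*psmd11b* encodes a scaffold subunit that links the parts of the cap, and it was the 1 member called at the low concentration. It measured 10.57, 10.18, 10.67 and 10.96 on the high arrays, against 7.91, 8.36 and 8.89 (lowest, median and highest) on the control arrays. The low arrays gave 9.30, 9.36, 9.38 and 9.37, and the mid arrays 10.98, 10.82, 10.92 and 10.56. The low arrays lay within 0.1 log2 unit of each other, above every control and below every mid and high array. The rise was 1.94-fold at low (log2 0.96 ± 0.16 SE, adjusted p = 1.9e-05), 5.38-fold at mid and 4.60-fold at high (adjusted p = 2.3e-11, all in limma).

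The smallest change of the non-ATPases was in *psmd7*, the partner of the deubiquitinase *psmd14* in the cap. Its probes changed by 1.38 and 1.19 on the log2 scale at high. The probe with the smaller change, which is also the gene's main probe, measured 12.23, 12.17, 12.34 and 11.81 on the high arrays, against 10.62, 10.95 and 11.20 (lowest, median and highest) on the control arrays. Low arrays measured 11.11, 11.18, 10.90 and 11.16, inside the control range, and mid arrays 12.14, 12.23, 11.66 and 12.19. The rise was 2.28-fold at high (adjusted p = 1.8e-08 in limma). *psmd14* itself rose 4.07-fold (adjusted p = 7.1e-11), *psmd8* 3.75-fold on its main probe (adjusted p = 8.7e-11) and *psmd1*, a scaffold of the cap's base, 3.66-fold (adjusted p = 1.6e-10). *psmd2*, *psmd3*, *psmd6* and *psmd13* rose by 1.42 to 1.65 on the log2 scale.

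Of the activators, the table holds *psme3* alone, which encodes a nuclear activator that opens the core without ubiquitin. Its probe with the largest change measured 10.03, 10.76, 10.28 and 10.36 on the high arrays, against 8.87, 9.13 and 9.41 (lowest, median and highest) on the control arrays. The low arrays gave 9.57, 9.38, 9.31 and 8.95, and the mid arrays 10.04, 10.13, 9.93 and 9.80. High and mid arrays were above every control, and 3 of the 4 low arrays were within the control range. The other 2 *psme3* probes changed more at low, by 0.59 and 0.61 on the log2 scale, and on both every low array was above every control. The gene's main probe, one of these, measured 11.56, 11.25, 11.17 and 11.39 on the high arrays, against 10.09, 10.18 and 10.46 (lowest, median and highest) on the control arrays. It stood at 10.85, 10.81, 10.97 and 10.68 on the low arrays and at 11.40, 10.89, 11.43 and 10.84 on the mid arrays, which overlapped. The 3 probes rose 2.14-fold to 2.37-fold at high (adjusted p at most 2.2e-08 in limma). *psme3ip1*, whose product binds the *psme3* activator, moved the other way. It measured 9.36, 9.12, 8.89 and 9.01 on the high arrays, against 9.97, 10.11 and 10.19 (lowest, median and highest) on the control arrays. Its values were 9.56, 9.74, 9.94 and 9.47 on the low arrays and 9.12, 9.06, 9.38 and 9.34 on the mid arrays, so that every exposed array was below every control. It was 2.02-fold lower at high (log2 -1.01 ± 0.11 SE, adjusted p = 1.3e-08 in limma).

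Assembly factors are chaperones that build the particle and are not part of it. *psmd9*, a chaperone of the ATPase ring, measured 10.77, 10.71, 11.05 and 10.90 on the high arrays, against 9.32, 9.65 and 10.03 (lowest, median and highest) on the control arrays. The low arrays gave 9.67, 9.55, 9.44 and 9.16, and the mid arrays 10.88, 10.30, 10.24 and 10.42. It rose 2.29-fold at high (adjusted p = 2.5e-08 in limma) and was not called at mid, although every mid array was above every control. *psmg1*, which with *psmg2* forms a chaperone of the alpha ring, measured 8.61, 8.84, 8.17 and 8.85 on the high arrays, against 7.51, 7.71 and 7.96 (lowest, median and highest) on the control arrays. On the low arrays *psmg1* stood at 8.04, 7.43, 8.33 and 7.53, and on the mid arrays at 9.23, 8.17, 8.79 and 8.68, and its low arrays had the widest range among the probes whose arrays are given here. It rose 1.86-fold at high (adjusted p = 8.2e-05 in limma), a call that was lost with either control set alone (adjusted p 0.0013 and 0.0012) and without high replicate 2 or 4, where it fell short of 1.8-fold. *psmg2* changed by -0.43 at low, 0.61 at mid and 0.97 at high on the log2 scale, and only the last was called.

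The concentrations were next compared with each other, as differences of their means in the same fit, where the 8 controls still add to the estimated spread. The methods speak of a respective control for each exposure group. Whether the concentrations were exposed together is not known here, so a batch between them cannot be told apart from the concentration. Between mid and low, 28 of the 40 probes rose and 1 fell, where 12.6% and 13.2% of the table were called higher and lower. Between high and low, 32 rose and 1 fell (22.2% and 20.7% of the table). Between high and mid, 0 rose and 0 fell (0.42% and 0.949% of the table), although 9 of the 40 had an unadjusted p under 0.05 in limma, as had 31.9% of the table. A higher mean at high was found in 35 of the 40, where 51.3% of the table had one. The median difference of the 40 probes was 1.00 between mid and low, 1.22 between high and low and 0.20 between high and mid. The 3 probes with an adjusted p of at most 0.05 between high and mid were all higher at high and all of the cap, where 8.23% of the table were higher at that threshold, namely *psmd6* (log2 0.68, adjusted p = 0.0016), *psmd4a* (log2 0.60, adjusted p = 0.012) and *psmc3* (log2 0.68, adjusted p = 0.017). In 32 of the 40 probes the group means were in rising order at every step, and in 2 (*psmb9a* and *psme3ip1*) in falling order. Of the other 6, *psma2a*, *psmb6*, *psmd9* and *psmg2* had means below the controls at low, and *psmd11b* and *psmg1* had lower means at high than at mid.

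The same pattern can be given as the share of the high change that was present at the lower concentrations, in ratios that share the 8 controls and are a description. Over the 37 probes called higher at high, the low concentration reached a median of 15.7% of the log2 change at high (quartiles 10.6 to 29.8%), and the mid concentration 87.1% (quartiles 78.7 to 93.0%). Over all 2161 table probes called higher at high the medians were 37.3% (quartiles 17.3 to 59.0%) and 82.2%. *psmc3* reached 6.13% at low and 74.1% at mid, *psmd11b* 43.5% and 110.3%, and *psmd6* 7.11% and 58.7%. The lowest share at low was -44.6% in *psmg2* and the highest 54.3% in *psme3*.

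**Figure D3:**
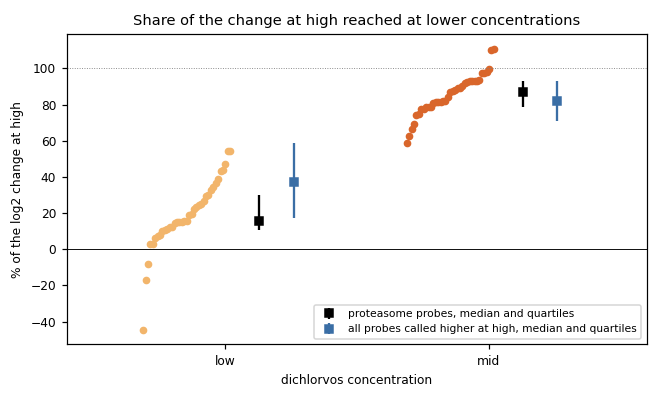
Percent of the log2 change at the high DDVP concentration that each of the 37 proteasome probes called higher there reached at the low and mid concentrations (dots), with medians and quartiles of these probes and of all 2161 table probes called higher at high. The proteasome medians are 15.7% at low and 87.1% at mid.

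Arrays of the same group that were high for 1 member tended to be high for others. After each group's mean was taken out, the median correlation over the 20 DDVP arrays was 0.14 between pairs of the 40 probes, 0.30 between the 10 core probes and 0.19 between the 22 cap probes, beside 0.03 between all table probes. It was -0.07 between *psmb9a* and the core and cap probes. These values are a description, since the probes share the arrays and their normalization.

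Genes that work with the proteasome but carry other symbols were described from lists written by role. Of 11 partner genes, 6 had probes in the table, and 2 of their 7 probes rose at low, 5 at mid and 7 at high, where 13.4%, 31.9% and 39.4% of the table were called higher. The largest change was in *txnl1*, a thioredoxin-like protein bound to the cap, with log2 changes of 2.65, 3.48 and 3.85 at low, mid and high. *usp14*, a deubiquitinase of the cap, changed by 0.06, 1.19 and 1.61, and *pomp*, the chaperone of the core, by -0.04, 0.69 and 0.89 in the same order. *zfand5b* was already higher by 1.74 at low, with 1.91 at mid and 2.01 at high. Of 12 genes that deliver substrates, 7 had probes in the table, and 1 of 10 probes rose at low, which is below the share of the table, 8 at mid and 8 at high. Among them the shuttle *rad23ab* changed by 0.65, 2.69 and 3.23 and the segregase *vcp* by 0.71, 1.67 and 2.09. Not all rose with the concentration. The *rad23b* probes changed by 1.02, 1.01 and 1.04, the call at low, and by 0.82, 0.92 and 0.94. *nploc4* (0.46, 0.66 and 0.60) and *nsfl1c* (0.13, 0.61 and 0.79) were not called at any concentration. *uba1*, which activates ubiquitin, rose by 1.04 at high. Of the transcription factors listed for their known action on proteasome genes, the table holds *keap1a*, the inhibitor of one of them, whose probes changed by 0.60 and 0.70 at high without a call. Of the interferon and antigen presentation list, with 10 genes on the array, the table holds *rsad2* alone. This antiviral gene changed by -0.17, -0.93 and -1.01 and was called lower at mid and high.

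The feeding arrays addressed whether lack of food alone moves these genes. Both unfed groups were compared with the same fed arrays, so the results at 24 h and 50 h are not independent. In the scanner files 56 of the 59 probes, from 47 genes, passed the filter on signal to noise (3 or more on each of the 4 arrays of at least 1 group). *psmb11a*, *psmb8a* and 1 of the *psmd1* probes did not, and were well above background on 0, 1 and 0 of the 12 arrays. None of the 56 was called in any comparison at an adjusted p of at most 0.001 in limma, where 0.00622% of the 16082 probes were called between unfed 24 h and fed, 0.0187% between unfed 50 h and fed and 0% between the unfed groups. At an unadjusted p under 0.05 the 56 gave 19, 16 and 4 probes, where 23.2%, 24.1% and 6.27% of all probes did so. The median log2 difference of the 56 probes was -0.15 at 24 h and -0.05 at 50 h, and that of all probes -0.02 and -0.06.

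The cap probes were nearly all lower in unfed than in fed fish, and none of these differences passed the threshold. At 24 h, 22 of 22 had a lower mean in unfed fish, where 46.5% of all probes had a higher one. The cap median was -0.33 (range -0.65 to -0.11), and in 13 of the 22 every unfed array lay below every fed array, as in 9.79% of all probes. At 50 h, 21 of 22 had a lower mean (median -0.19, range -0.50 to 0.06), where 41.1% of all probes had a higher one. In 4 of the 22 the groups did not overlap, as in 7.83% of all probes. Within the 3 slides, each of which held all 3 groups, the cap median at 24 h was -0.39, -0.24 and -0.27, and at 50 h -0.23, -0.20 and -0.15. The 14 core probes had a median of 0.01 at 24 h (7 above and 7 below 0) and of 0.19 at 50 h (11 above 0). Lower unfed means were not confined to the cap. The *psme3* probes had means of 10.53, 9.37 and 8.25 in unfed 24 h fish and 10.74, 9.43 and 8.41 in unfed 50 h fish. Their fed means were 10.89, 9.66 and 8.59. For *psme3ip1* the means were 10.28 and 10.22 in unfed 24 h and 50 h fish and 10.45 in fed fish. Across single arrays the cap median relative to the fed mean was -0.41 to -0.24 at 24 h, -0.23 to -0.11 at 50 h and -0.07 to 0.04 in fed fish, so that the unfed and fed arrays did not overlap.

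At an adjusted p of at most 0.05, 5 cap probes were lower in unfed 24 h than in fed fish and 1 in unfed 50 h fish, where 3.6% and 2.8% of all probes were, and 0 remained at either time once the slide was a block in the fit. Among the members the lowest p at both times, against the same fed arrays, was that of a *psmd4a* probe. It measured 7.26, 7.37, 7.36 and 7.45 in unfed 24 h fish and 7.23, 7.36, 7.57 and 7.48 in unfed 50 h fish, against 8.03, 7.89, 7.82 and 7.66 in fed fish. Every unfed array was below every fed array, by -0.49 at 24 h (adjusted p = 0.028) and -0.44 at 50 h (adjusted p = 0.039, both in limma). The gene's main probe measured 12.01, 12.16, 12.07 and 12.25 in unfed 24 h fish and 12.18, 12.41, 12.45 and 12.45 in unfed 50 h fish, against 12.64, 12.55, 12.58 and 12.44 in fed fish, with a difference of -0.43 at 24 h (adjusted p = 0.031).

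The other 3 probes were of *psmd8* and *psmd11b*. The main *psmd8* probe, of a cap subunit next to *psmd14*, measured 10.22, 9.97, 10.36 and 10.13 in unfed 24 h fish and 10.39, 10.58, 10.37 and 10.57 in unfed 50 h fish, against 11.17, 10.56, 10.64 and 10.77 in fed fish. The 24 h arrays lay below every fed array (-0.61, adjusted p = 0.030 in limma, and -0.65 on the other probe), and within slides the difference was -1.07, -0.24 and -0.64. *psmd11b* measured 9.47, 9.20, 9.41 and 8.97 in unfed 24 h fish and 9.17, 9.35, 9.63 and 9.46 in unfed 50 h fish, against 9.98, 9.78, 10.20 and 9.62 in fed fish. The 24 h difference of -0.63 (adjusted p = 0.039 in limma) was -0.64, -0.58 and -0.66 within the slides, and at 50 h 1 unfed array overlapped the fed range. *psmc3*, the largest DDVP change, measured 12.02, 12.01, 11.87 and 11.90 in unfed 24 h fish and 11.88, 11.90, 12.06 and 12.01 in unfed 50 h fish, against 12.42, 12.09, 12.30 and 12.42 in fed fish (-0.36 and -0.34, adjusted p = 0.062 and 0.069 in limma). Of the lists of partners and of substrate delivery, 9 and 11 probes were tested and 0 were called. Their medians at 24 h were -0.11 and -0.17. At an adjusted p of at most 0.05, *usp14* (-0.61, adjusted p = 0.010), *ddi2* (-0.43, adjusted p = 0.043) and *uchl5* (-0.35, adjusted p = 0.047, all in limma) were lower at 24 h.

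Between unfed 50 h and unfed 24 h fish, 47 of the 56 probes had a higher mean at 50 h, with a median difference of 0.11, where 48.8% of all probes had a higher mean. The probes with the lowest p were those of *psmd4a* (main probe, 0.25), *psmg1* (0.23) and *psmd7* (0.31), and their adjusted p in limma was 0.78 or more. *psmg1* measured 8.72, 8.88, 9.08 and 8.86 in unfed 50 h fish, against 8.70, 8.65, 8.66 and 8.61 in unfed 24 h fish, and its fed arrays gave 8.88, 9.08, 8.92 and 8.79. *psmd7* measured 11.37, 11.64, 11.81 and 11.56 in unfed 50 h fish, against 11.15, 11.06, 11.41 and 11.50 in unfed 24 h fish, and its fed arrays gave 11.68, 11.47, 11.62 and 11.95. The *psmg1* arrays of the unfed groups did not overlap, and those of *psmd7* did.

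**Figure D4:**
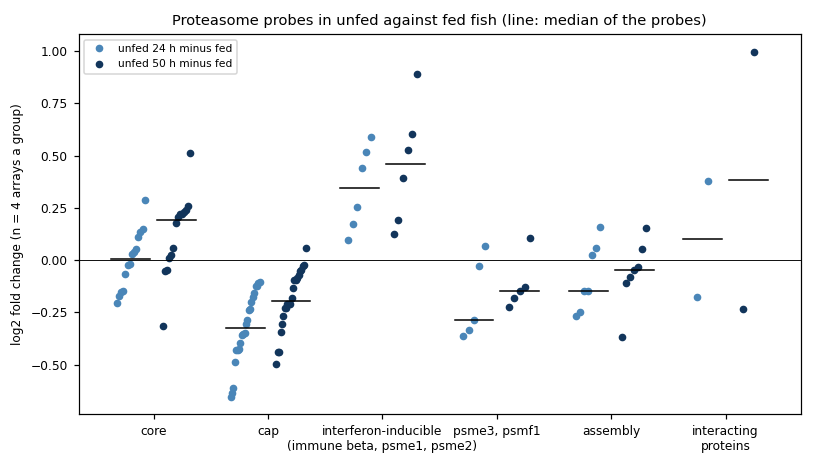
Log2 fold change of the 56 proteasome probes in unfed 24 h and unfed 50 h fish against fed fish (4 arrays a group), by role, with the median of each set as a line. All 22 cap probes lie below 0 at 24 h, and the 6 interferon-inducible probes lie above 0 at both times.

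The interferon-inducible members, *psmb9a*, *psmb10*, *psmb12*, *psmb13a*, *psme1* and *psme2* (*psmb12* and *psmb13a* were placed here by their symbols), all had a higher mean in unfed than in fed fish, and none was called. Of all probes, 46.5% had a higher mean at 24 h and 41.1% at 50 h. The median of the 6 members was 0.35 at 24 h and 0.46 at 50 h. *psmb10*, which in mammals replaces a catalytic beta subunit, measured 10.07, 9.73, 10.06 and 8.77 in unfed 24 h fish and 9.89, 10.52, 10.25 and 9.17 in unfed 50 h fish, against 9.44, 8.78, 8.42 and 9.64 in fed fish. The groups overlapped, with differences of 0.59 and 0.89 (adjusted p = 0.37 and 0.17 in limma). *psmb13a* differed by 0.52 and 0.60, *psme2* by 0.44 and 0.53 and *psme1* by 0.25 and 0.39 at 24 and 50 h. The means of *psmb12* lay close together, at 11.16 in unfed 24 h, 11.19 in unfed 50 h and 11.07 in fed fish. *psmb9a* measured 12.32, 11.49, 11.67 and 11.18 in unfed 24 h fish and 11.38, 12.14, 11.82 and 11.40 in unfed 50 h fish, against 11.30, 11.71, 11.54 and 11.42 in fed fish, and the groups overlapped throughout. Within slides the median of the 6 probes at 24 h was 0.49, 0.65 and -0.17, so it was below 0 on the third slide, for 6 of 6 probes.

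Leukocyte markers moved in the same direction as these 6 probes. Of 8 leukocyte marker genes 5 had probes on the array, none of them never above background, and their summed signal was 19959 to 48283 in unfed 24 h fish and 26132 to 49210 in unfed 50 h fish, against 12079 to 26626 in fed fish. All 7 of their tested probes had a higher mean in unfed fish (median 0.92 and 1.00), and 0 were called. The summed signal of 9 exocrine pancreas probes (6 of 9 genes) was 111330 to 329482 in unfed 24 h fish and 112172 to 807233 in unfed 50 h fish, against 336026 to 845451 in fed fish. The part of either cell type in the proteasome values was not tested. Of the interferon and antigen presentation list, 12 probes were tested and 0 called, with a median of 0.35 at 24 h (range -0.90 to 0.89) and of 0.38 at 50 h (range -0.78 to 1.31). The ends of these ranges were *stat1b* and *irf1b*, both transcription factors of the interferon response, at 24 h and *rsad2* and *irf1b* at 50 h.

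The members outside the table other than these also had no call between feeding groups. Log2 differences at 24 and 50 h were -0.02 and 0.26 for *psma4*, 0.29 and 0.51 for *psma6l* and -0.07 and 0.03 for *psmb2*, all core subunits or named as such. The assembly chaperones gave -0.25 and -0.37 for *psmd5*, 0.06 and -0.05 for *psmg3*, and 0.16 and 0.16 for 1 probe of *psmd10*. The other *psmd10* probe had means of 8.87 in unfed 24 h, 8.74 in unfed 50 h and 8.84 in fed fish. *psmf1*, an inhibitor of the core, gave 0.07 and 0.11 on 1 probe and -0.03 and -0.13 on the other. *psmc3ip*, a protein of meiotic recombination and not of the proteasome, gave 0.38 and 1.00 (SE 0.37, adjusted p = 0.58 and 0.13 in limma), the highest difference of the 56 probes at 50 h.

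Finally, the change at the high DDVP concentration was set against that of 50 h without food in 1 model over the table's 32 arrays. The changes have unlike references. Per the paper, DDVP controls were fed before the exposure and again several hours later, and fed fish 4 h before harvest. The experiments also differed in date and scanner, and food accumulated in the mid and high tanks. Exposure, feeding state and experiment thus cannot be told apart in the difference of the effects. The difference of the effects, high DDVP minus controls less unfed 50 h minus fed, was called higher in 37 of the 40 probes and lower in 1, where 40.5% and 31.4% of the table were. Its median was 1.48 over the 40 probes and 0.51 over the table, 2.00 over the 22 cap probes (range 1.25 to 2.98) and 1.21 over the 10 core probes (range 0.22 to 1.54). The largest difference was that of *psmc3* at 2.98 ± 0.22 (SE, adjusted p = 1.1e-12 in limma), which had a change of 2.63 with DDVP and of -0.35 without food in the table. The 1 called lower was *psmb9a* (-1.95, adjusted p = 7.5e-06), with a change of -1.70 with DDVP and of 0.25 without food in the table, where the scanner files gave 0.19. *psma2a* was not called (0.22, 95% interval -0.10 to 0.55, adjusted p = 0.18), nor was *psme3ip1*, whose difference of -0.76 was under 1.8-fold. The call of *psmg1* (0.98) was lost with either control set alone. Outside the members, the difference of the effects for *rsad2* was -0.11 and was not called.

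**Figure D5:**
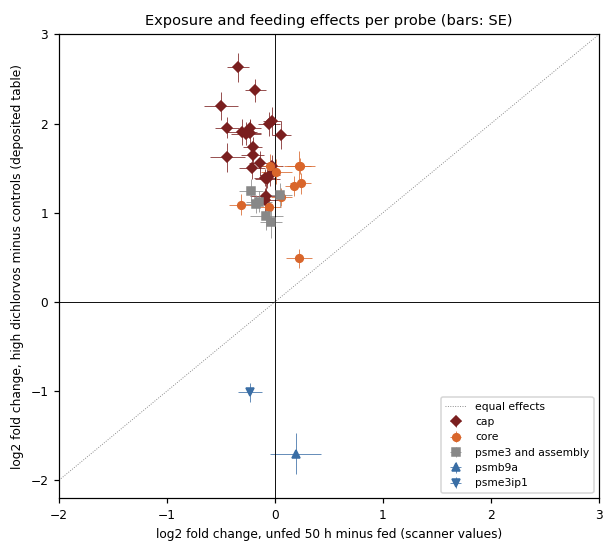
Log2 fold change of the 40 proteasome probes of the table at the high DDVP concentration against controls (vertical axis, deposited table) and in unfed 50 h against fed fish (horizontal axis, scanner files), with standard errors and a dotted line of equal effects. The cap probes lie above 1.14 on the vertical axis and between -0.50 and 0.06 on the horizontal one, and *psmb9a* lies at -1.70 and 0.19.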

How the data were processed

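Liver RNA of pooled zebrafish was measured on single-colour arrays. Per the study's methods, the authors scanned the DDVP arrays on a GenePix scanner and made the deposited log2 values by quantile normalization of the median spot signal, log2 and removal of a batch effect, and kept the probes under a false discovery rate of 0.001 in a joint comparison. The deposited scanner files of the 12 feeding arrays hold intensity values from Agilent Feature Extraction, namely uncorrected medians of spot and local background and a processed signal with the background taken off. DDVP scanner values were not analysed here. In both experiments no array was imputed or dropped.

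The deposited log2 values were used to compare the DDVP groups in limma 3.58.1 (lmFit and eBayes, R 4.3.3), each concentration against the 8 controls pooled, because the labels do not tie a control set to a concentration. For the feeding arrays the median signal was quantile normalized and taken to log2, outlier spots (6 to 30 per array) were left out, spots of a probe were averaged, and the 16082 probes whose signal was 3 or more times the noise on each of the 4 arrays of at least 1 group were fitted in limma, with calls where the adjusted p did not exceed 0.001 and no fold limit. The difference between the DDVP and feeding effects was a contrast over the table's 32 arrays. p-values were two-sided and adjusted by Benjamini-Hochberg over all probes of a fit.

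Probes were tied to genes by RefSeq accession through a table of RefSeq genes of assembly GRCz12tu, used for names only. It holds 59 genes with such symbols, of which 10 matched no probe. No genome or sequence table was used, so no sequences are shown and the planned motif search was not run. The members and gene lists were chosen with earlier results of these data known. Arrays are given for the probes with the largest and smallest change at the high concentration in each role, every member lower there, every member called on feeding and, where none was called, the 3 with the lowest p in each feeding comparison. The DDVP arrays of *psmd11b* and of the main *psme3* probe and the feeding arrays of *psmb10* and *psmb9a* were added after their values were seen. Otherwise a gene with several probes is given by the probe with the highest mean (its main probe), and its other probes beside it.

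The number of arrays limits the precision. In tests on simulated data, log2 changes of 1 and 2 were found in 70 and 99 of 100 probes for high DDVP against controls (5481 probes), in 35 and 78 of 100 for unfed 50 h against fed (16082 probes), and in 29 and 90 of 100 for the difference of effects (5481 probes), with 0 false calls. The simulation had independent noise, no equal control set means and only these changed probes, while 74.6% of the table was called at high. Its rates for DDVP and for the difference of effects thus check the fit and do not give the power in these data. Alternatives were either control set alone, array centring, other thresholds, replicate and slide blocks, other signals and filters, the deposited table for the feeding arrays, and each array left out. Replicate numbers were not used as a pairing in the main fits, and whether they mark one is not settled here. Python 3.11.15 with numpy 2.4.6, pandas 2.3.3 and matplotlib 3.10.9 was used for summaries and figures.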

Additional observations from a re-analysis of the deposited data

Results flagged for a closer look

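A single array stood apart from the rest of its group, by Dixon's ratio of gap to range, in 8 of 77 groups of arrays examined, where chance flags about 1 in 20. On the DDVP arrays, *psme3* on the probe with the smallest change had a high value at low replicate 3 (8.83, the others 8.59 to 8.61) and at mid replicate 1 (9.27, the others 8.99 to 9.03). *psmc3* was high at low replicate 1 (11.98, the others 11.44 to 11.53), and *psmd4a* on its main probe was low at high replicate 1 (13.88, the others 14.31 to 14.34). *psmd7* was low at mid replicate 3 (11.66, the others 12.14 to 12.23). *psmb1* was low at low replicate 4 (11.58, the others 11.95 to 12.00) and high in control set 1 replicate 3 (12.04, the other 7 controls 10.71 to 11.33). On the feeding arrays *psmd4a* on its main probe was low at unfed 50 h replicate 1 (12.18, the others 12.41 to 12.45).

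In 4 members the mean was below the controls at the low concentration and above them at the high one, and the difference between high and low was tested in limma. It was 0.68 for *psma2a* (adjusted p = 4.5e-05), with changes of 0.49 at high and -0.19 at low, and stayed under 1.8-fold. It was 1.27 for *psmb6* (adjusted p = 9.2e-09), with changes of 1.17 at high and -0.09 at low. It was 1.40 for *psmd9* (adjusted p = 7.7e-08), with changes of 1.20 at high and -0.21 at low. It was 1.40 for *psmg2* (adjusted p = 7.0e-07), with changes of 0.97 at high and -0.43 at low. None of the 4 changes at low was called.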

How the results depend on the processing

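Over 30 counts and medians of the members, 467 of 491 values under the alternatives kept their direction and lay within 1.5 times the reported count or within the spread between replicates. The alternatives include either control set alone, where the medians could not move because the set means are equal. A replicate block left the members' medians unchanged too, and other thresholds use the same fit and cannot move a median. With other thresholds, the low concentration gave 10 higher without the fold limit and 16 higher and 2 lower at an adjusted p of 0.05 without it. At that same looser threshold 2 were lower between mid and low, 3 higher and 0 lower between high and mid, 2 lower between high and low, 5 lower in unfed 24 h and 1 lower in unfed 50 h fish. Without the fold limit alone, 2 were lower between high and low and 2 lower in the difference of effects. With the processed signal scaled to the 75th percentile the members' median was -0.28 at 24 h and -0.18 at 50 h without food, where the median of all probes was -0.10 and -0.14. With arrays centred on their medians the difference of effects had a median of 1.39, where that of all probes was 0.41. With a replicate block the calls were 1, 34 and 37 higher at low, mid and high, and no call of a member changed. Same-numbered arrays deviated together, at a correlation over 0.1, in 11 of 40 DDVP pairs and 4 of 12 feeding pairs. These counts do not settle whether the numbers mark a pairing between some groups. At an adjusted p of 0.05, unfed 24 h fish gave 5 lower members, and 0 with the slide as a block, 3 with a replicate block, 9 with the processed signal, 6 with normexp background correction (chosen after seeing the data, since the planned mean signal was not used here), 3 without the signal filter and 14 in the deposited table. In unfed 50 h fish these counts were 1, 0, 0, 1, 0, 0 and 2 in the same order.

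With single arrays left out, the called counts were 1 to 2 higher at low, 31 to 36 higher and 1 to 2 lower at mid, 36 to 37 higher at high, 24 to 29 higher and 0 to 1 lower between mid and low, and 36 to 37 higher in the difference of effects. The second call at low, without low replicate 2 or control set 1 replicate 4, was *psmd8* on its other probe, and the lower call lost at mid without mid replicate 1 or 2 was that of *psme3ip1*, at -0.85 and -0.82. *psmb9a* was not called between mid and low without any of the 4 low arrays or without mid replicate 1, 2 or 4. *psmb1* was not called between high and low without low replicate 4 (0.84). Of the higher calls at mid, *psme3* lost that of its probe with the largest change in 4 leave-outs (0.81 to 0.84) and that of its main probe in 2, *psma6a* lost its call in 1 and *psmg1* in 1 (0.83, without mid replicate 1), while *psma6b* gained one in 6 and *psmd9* in 3. Directions turned only for differences near 0 that were not called. These were *psmg1* at low (-0.0539 to 0.247, below 0 without low replicate 3) and, between high and mid, *psmc1a* (-0.0884 to 0.122, below 0 without high replicate 1 or 2 or mid replicate 2 or 3), *psmg1* (-0.280 to 0.0715, above 0 without high replicate 3 or mid replicate 1) and *psmd7* (-0.0479 to 0.193, below 0 without mid replicate 3). *psmg1* lost its call in the difference of effects in 6 leave-outs, with an adjusted p of up to 0.0017. Causes of these changes were not tested. Separately, the median spot of a feeding array had a signal of 46 to 59 units, and weak probes are measured with less precision. Whether signal strength bears on the changes above was not tested.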
